A study of Mus musculus with 6 samples.

Results

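The guidance genes examined here are the semaphorins, their plexin receptors, the Slits and their Robo receptors, the netrins, and the ephrins with the Eph receptors. They were taken by gene symbol from a matrix of mouse chondrocytes, and 62 of its 22032 rows were members: 20 semaphorins, 14 Eph receptors, 9 plexins, 8 ephrins, 4 Robos, 3 Slits, 3 netrins and *Plxna4os1*, an RNA antisense to *Plxna4*. By role, 34 encode ligands and 27 encode receptors. The rule itself used symbols only, but it was chosen with earlier results of these data known.

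RNA-seq was made on chondrocytes from the knee cartilage of mice, with 3 samples from E16.5 embryos and 3 from adults of 2 months. Cells of both stages were sorted as negative for the lineage markers CD31, CD45 and Ter119, negative for alkaline phosphatase (ALP) and positive for BMPR1B, a bone morphogenetic protein receptor used to enrich chondrocytes. No sample carries a transgene, deletion or treatment in the labels. The adults were male B6 animals, and the sex and strain of the embryos were not given in the sources used here, so these cannot be told apart from stage. The labels give the embryonic stage in weeks, whereas the methods give E16.5, which is used here. The series names the 3 samples of a stage biological replicates, without the number of animals in each, so p-values measure the spread between these samples. In bulk RNA, fewer cells of a type and less RNA per cell cannot be told apart.

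These families were named for steering growing axons, and they also pattern vessels and skeletal tissues. Secreted class 3 semaphorins bind neuropilins, which signal through plexins, while most membrane-bound semaphorins bind plexins directly. Slits act through Robo receptors, and netrins act through DCC, neogenin and the UNC5 receptors, although netrin 4 is known mainly as a laminin-binding protein of basement membranes. Ephrins and Eph receptors are both held at the cell surface and signal in both directions at cell contacts, ephrin A being tethered by a lipid anchor and ephrin B crossing the membrane.

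Levels are given in TPM, a share of all transcripts in a sample that is scaled to a fixed total and corrected for transcript length, so that levels of different genes can be set side by side. Differences are given as the log2 fold change of adult over embryonic samples on the log2(TPM + 1) scale, which understates the change of low genes. Each was tested with limma across the 13125 genes that averaged 1 TPM or more, and a gene passed the threshold with a p under 0.05 after Benjamini-Hochberg adjustment. Intervals are 95% intervals without adjustment.

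Upstream sequence is shown for 4 members that passed the threshold described above. *Sema3a* and *Sema3e*, secreted class 3 semaphorins, lie next to each other among the members on chromosome 5 and moved in opposite directions. *Ntn4* had the largest rise and *Efnb2* the largest fall among the ephrins. Each run is the 250 bases before a RefSeq transcription start on GRCm38.p6, written 5′ to 3′ on the strand of the gene. Capitals mark matches to 4 short motifs, each searched on both strands and allowed to overlap. The GC box was searched as GGGCGG. For the CCAAT box its own letters were used. The TATA element was searched as TATAAA. For the core of SOX factor sites the letters were ACAAAG. The windows are chr5:13396534-13396783 (plus strand) for *Sema3a*, chr5:14025026-14025275 (plus) for *Sema3e*, chr10:93640799-93641048 (plus) for *Ntn4* and chr8:8661243-8661492 (minus) for *Efnb2*.
Sema3a: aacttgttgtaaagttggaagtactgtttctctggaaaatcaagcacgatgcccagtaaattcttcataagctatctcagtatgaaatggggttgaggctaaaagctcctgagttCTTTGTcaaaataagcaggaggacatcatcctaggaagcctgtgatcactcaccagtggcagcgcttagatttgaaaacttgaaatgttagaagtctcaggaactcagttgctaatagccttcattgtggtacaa
Sema3e: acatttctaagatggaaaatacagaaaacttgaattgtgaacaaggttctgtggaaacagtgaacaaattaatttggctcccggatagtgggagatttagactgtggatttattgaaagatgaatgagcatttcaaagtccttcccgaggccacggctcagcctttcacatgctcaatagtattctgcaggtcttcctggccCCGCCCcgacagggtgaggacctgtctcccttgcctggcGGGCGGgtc
Ntn4: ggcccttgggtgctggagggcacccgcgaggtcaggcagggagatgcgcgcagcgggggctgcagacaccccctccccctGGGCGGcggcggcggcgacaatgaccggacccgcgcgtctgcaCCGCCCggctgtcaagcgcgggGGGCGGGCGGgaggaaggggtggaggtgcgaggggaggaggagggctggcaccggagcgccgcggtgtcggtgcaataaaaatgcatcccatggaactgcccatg
Efnb2: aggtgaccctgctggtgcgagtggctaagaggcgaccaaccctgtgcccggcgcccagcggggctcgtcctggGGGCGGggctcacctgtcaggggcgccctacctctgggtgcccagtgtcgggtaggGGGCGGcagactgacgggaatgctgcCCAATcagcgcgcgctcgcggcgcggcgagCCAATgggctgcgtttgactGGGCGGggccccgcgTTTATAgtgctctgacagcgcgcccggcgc

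None of the 4 windows covers an exon of the GENCODE annotation. Those of *Sema3e* and *Efnb2* end at the base before the annotated gene, and those of *Sema3a* and *Ntn4* lie in introns of transcripts of the same gene that start further upstream. The annotated *Ntn4* gene starts close to its window, at chr10:93640681. The annotated *Sema3a* gene starts far before its window, at chr5:13125414, so that window is not the region before the first annotated start. The *Sema3a* window was the poorest in G and C, at 40.8% with 2 CpG dinucleotides, and held 1 SOX core and no GC box. The *Sema3e* window had 48.0% G and C, 7 CpG and 2 GC boxes. By contrast, the *Ntn4* window had 73.2% G and C with 26 CpG and 4 GC boxes, and the *Efnb2* window 72.0% with 27 CpG, 3 GC boxes, 2 CCAAT boxes and 1 TATA box.

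Of the 62 members, 53 matched a RefSeq entry by symbol, with 69 windows between them. Unlike the 4 shown, some of these windows overlap annotated exons, and those of *Epha10*, *Plxna2*, *Plxnb1* and *Sema3c* lie wholly in exons. A GC box was in 69.6% of the 69 member windows, against 32.7% of all 32817 windows and 42.6% of the 21229 windows of protein-coding genes. A TATA box was in 2.9% of the member windows and in 11.6% of the protein-coding ones, the *Efnb2* window being 1 of 2 member windows that had it. CCAAT boxes (29.0% against 35.3%) and SOX cores (10.1% against 15.0%) were not more frequent in member windows than in those of protein-coding genes. The median G and C content was 64.0% in member windows and 55.6% in protein-coding windows, and the shares above were not corrected for it. A match is a run of letters and says nothing of binding.

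Most guidance genes that differed were lower in adult samples. Of the 62 members 51 averaged 1 TPM or more and were tested, and 27 of them (52.9%) passed the threshold, where 45.3% of all tested genes did. Only *Ntn4*, *Ntn1* and *Sema3e* were higher in adult samples, against a background of 23.9% of all genes. The other 24 (47.1%) were lower, against a background of 21.4%, and each of these fell by at least 1 on the log2 scale. Of the 2809 lower genes among all tested genes, 1971 fell by at least 1. The median log2 fold change was -1.09 over the tested members and 0.16 over all tested genes. Among the members it ran from -4.88 for *Epha4* to 4.69 for *Ntn4*.

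The values of the stages did not overlap in 35 of the 51 tested members, where 56.5% of all tested genes had no overlap. The adult samples lay above in 4 of these members and below in 31. Among all 13125 tested genes they lay above in 4023 and below in 3397. The same 3 genes higher in adults were found with every alternative setting tried, and the number of lower genes ran from 19 to 28. Adult replicate 3 was the highest adult sample in 11 of the 24 lower members, and in 37.8% of all lower genes.

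**Figure D1:**
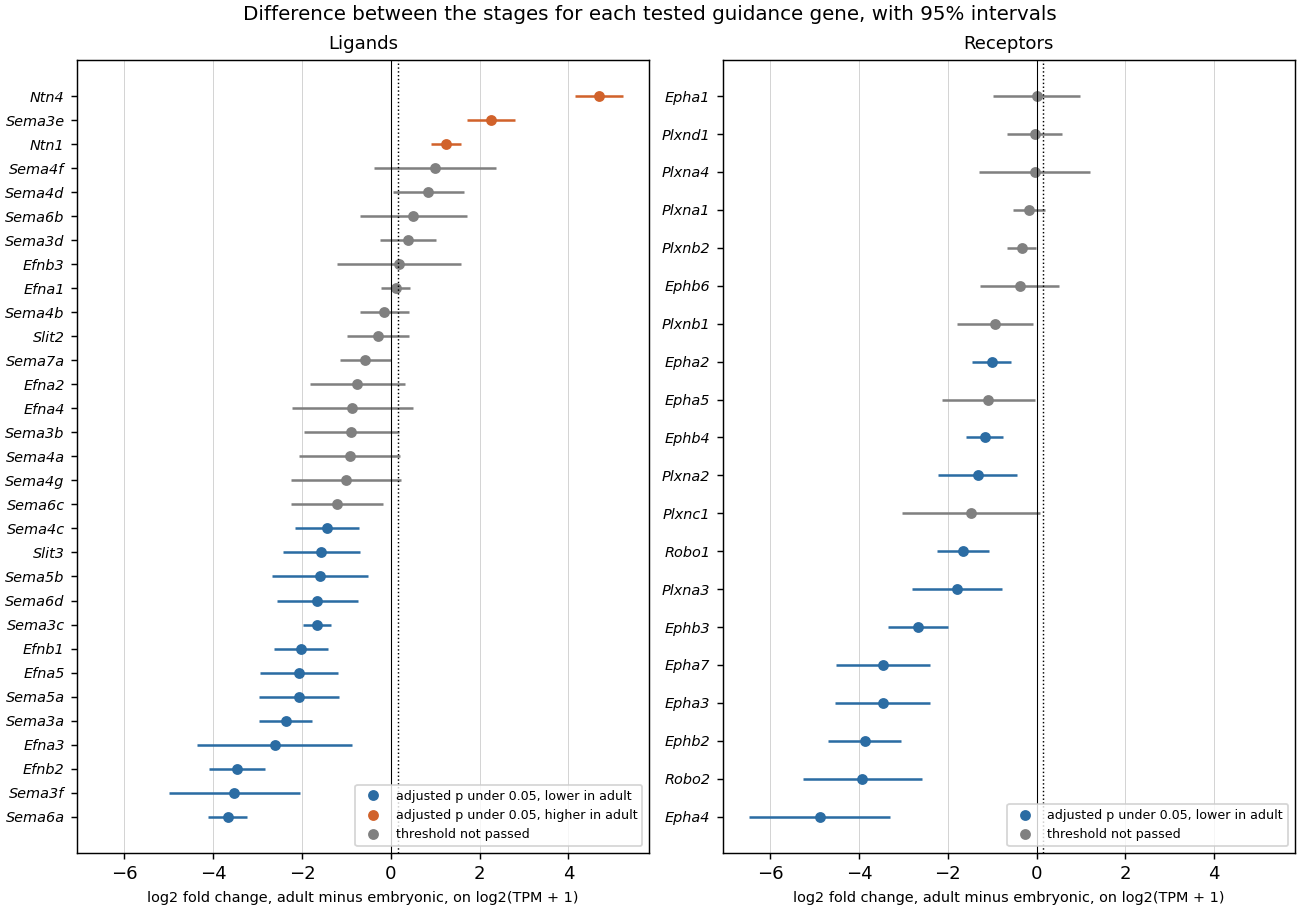
Log2 fold change (adult minus embryonic, on log2(TPM + 1)) of the 51 tested guidance genes, ligands on the left and receptors on the right, with 95% intervals; blue and orange points passed the threshold of adjusted p under 0.05 and grey points did not, and the dotted line marks the median of all tested genes at 0.16. *Ntn4*, *Sema3e* and *Ntn1* stand on the right of the ligand panel, while each receptor that passed lies on the left.

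By role, as the plot of log2 fold changes shows, the rises among the members were all in ligand genes. The symbol rule leaves out the neuropilins and the netrin receptors, which are given below. Of those, *Nrp2*, *Neo1* and *Unc5b* were higher in adult samples, and *Nrp1* and *Unc5c* were lower. Of the 31 tested ligands 3 were higher, 13 (41.9%) lower and 15 did not pass. Over all tested genes 23.9% were higher and 21.4% lower. Of the 20 tested receptors among the members 11 (55%) were lower and 9 did not pass. Of these 20, 0 were higher in the limma test at the adjusted threshold or at an unadjusted p under 0.05. The summed level of the member receptor genes was 764 to 861 TPM in embryonic samples and 402 to 421 TPM in adult samples. For the ligand genes the sum was 1044 to 1170 TPM and 892 to 991 TPM. The stage mean was at least 10 TPM for 35 members in embryonic samples and for 19 in adult samples.

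The order of the levels also differed between the stages. By mean TPM the highest members in embryonic samples were *Epha2*, *Sema3c*, *Plxnb2*, *Sema6a*, *Plxna1* and *Efna1*. In the adult samples *Ntn4*, which held place 33 in embryonic samples, came before *Efna1*, *Ntn1*, *Plxna1*, *Plxnb2* and *Epha2*. Several neighbours in these orders could not be separated: the embryonic values of *Plxnb2* (126 to 134 TPM), *Sema6a* (110 to 147 TPM) and *Plxna1* (104 to 144 TPM) overlapped, as did the adult values of *Efna1*, *Ntn1* and *Plxna1*. *Epha2* (190.1 to 199 TPM) stood clear of *Sema3c* (139.6 to 169.9 TPM) in embryonic samples, and *Ntn4* stood clear of the others in adult samples.

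**Figure D2:**
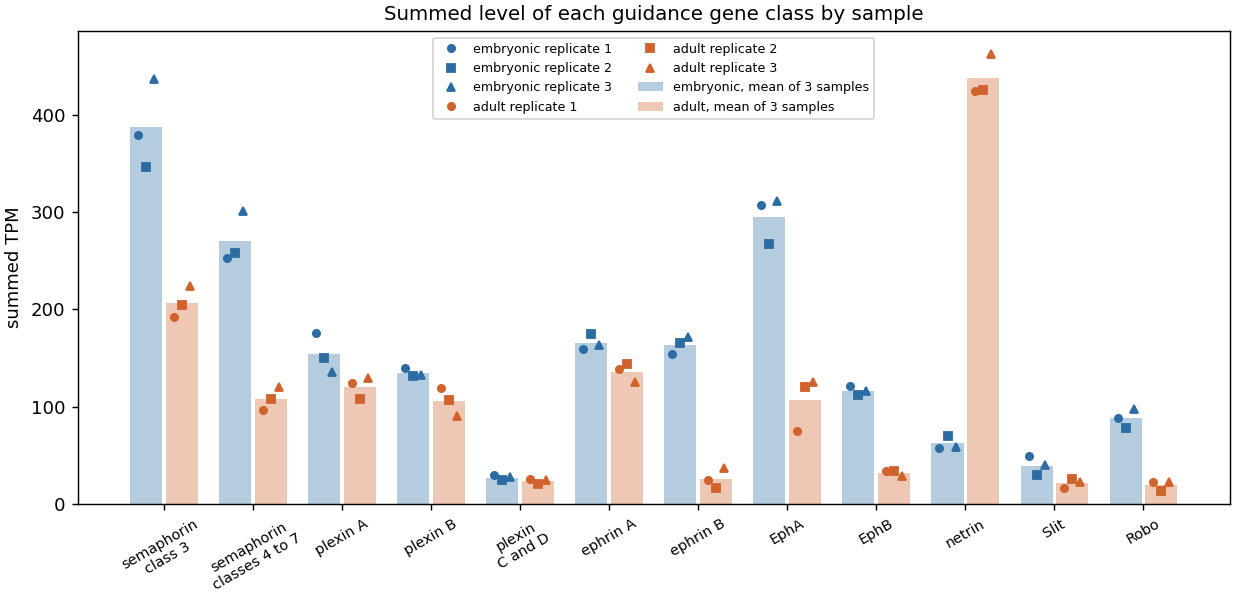
Summed TPM of the members of each class in every sample; bars are the mean of the 3 samples of a stage and points are the samples. The netrin sum is the only one whose adult samples all lie above the embryonic ones, and the EphA, EphB, ephrin B, Robo and both semaphorin sums lie far below them.

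Chondrocyte identity was checked with 8 genes. *Sox9*, the master transcription factor of chondrocytes, was at 392 to 465 TPM in the embryonic and 589 to 901 TPM in adult samples, and *Col2a1*, encoding collagen II, was at 14154 to 15251 TPM against 3166 to 7084 TPM. *Matn3* (181 to 234 TPM against 1.11 to 3.65 TPM) and *Col9a1* (1913 to 1946 TPM against 27.2 to 64.3 TPM), both cartilage matrix genes, were low in adult samples. *Col11a1* and *Hapln1* were also lower. *Comp* was higher in adult samples (553 to 606 TPM against 1766 to 2662 TPM), and *Acan* (1018 to 1306 TPM against 1265 to 2672 TPM) did not pass. Where 23.9% of all tested genes rose and 21.4% fell, 2 of these 8 genes rose and 5 fell. Their sum was 21772 to 23556 TPM in the embryonic and 9325 to 12324 TPM in adult samples, and most of the embryonic sum was *Col2a1*.

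Markers of other cells also moved, where 23.9% of all tested genes were higher and 21.4% lower in adult samples. Of 6 tendon and fibroblast genes 5 were lower in adult samples, with a sum of 602 to 693 TPM against 97.4 to 124 TPM, *Scx* and *Tnmd* being listed at 0 in 2 and 1 adult samples. The endothelial sum was 84.7 to 100.2 TPM against 28.6 to 43.2 TPM, with 2 of 5 tested genes lower. Most of it was *Erg*, and the other gene that fell was *Tek* (9.21 to 19.0 TPM against 0.121 to 0.889 TPM). *Pecam1* was higher in each adult sample (1.29 to 1.75 TPM against 2.79 to 6.87 TPM) but did not pass. *Cdh5*, *Tie1* and *Vwf* stayed under 1 TPM in each embryonic sample and reached at most 2.36, 1.15 and 1.38 TPM in an adult one. The muscle sum, mostly *Des*, was 47.1 to 64.2 TPM against 1.24 to 8.83 TPM, with 1 of 4 tested genes lower. Neuron and Schwann cell genes summed to 7.92 to 16.3 TPM against 2.65 to 14.5 TPM, with 1 of 4 tested genes lower and *Foxd3* listed at 0 throughout. Osteoblast genes summed to 15.7 to 51.8 TPM against 254 to 404 TPM, most of the adult sum being *Ibsp* (235 to 316 TPM). Of the 5 genes 2, *Ibsp* and *Bglap*, were higher, and *Bglap* was listed at 0 in each embryonic sample. *Dmp1* was lower (10.1 to 16.3 TPM against 0.0611 to 3.51 TPM), and *Sp7* and *Phex* did not pass. Leukocyte genes summed to 5.70 to 13.7 TPM against 19.0 to 72.7 TPM, with 1 of 3 tested genes higher and *Cd3e* at 0 throughout, and erythroid genes to between 0 and 104 TPM against 1.41 to 33.8 TPM. The part of these cells in the results on guidance genes was not tested.

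Both tested netrin genes rose, as did 23.9% of all tested genes. *Ntn4* was at 9.16, 16.8 and 9.18 TPM in embryonic replicates 1 to 3 and at 300.2, 294 and 355 TPM in adult replicates 1 to 3. Every adult sample was far above every embryonic one, and the mean was 27.0 times higher. On the log2 scale it went from 3.62 ± 0.47 (SD, n = 3) to 8.31 ± 0.15, a log2 fold change of 4.69 (SE 0.237, adjusted p = 2.2e-06). *Ntn1*, encoding the archetypal secreted netrin, was at 48.3, 52.8 and 49.7 TPM in the embryonic and at 124, 131 and 107 TPM in adult samples. Here too the stages did not overlap, with a log2 fold change of 1.24 (SE 0.146, adjusted p = 0.000236). *Ntn5* did not reach 1 TPM in any sample.

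Within the family *Ntn1* and *Ntn4* changed places. *Ntn1* held 75.1% to 84.4% of the netrin TPM in embryonic samples and 23.1% to 30.9% in adult samples, and *Ntn4* went from 15.6% to 23.9% up to 69.1% to 76.9%. The summed netrin level was 57.8 to 70.4 TPM in the embryonic and 424 to 462 TPM in adult samples.

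The netrin receptors lie outside the symbol rule and were followed as partner genes. *Neo1*, encoding neogenin, was at 57.7, 42.7 and 56.7 TPM in embryonic samples and at 101, 134 and 98.3 TPM in adult samples, without overlap (log2 fold change 1.07, SE 0.188, adjusted p = 0.00202). *Unc5b*, encoding a repulsive netrin receptor known from vessels, was at 12.4, 7.26 and 5.83 TPM and at 21.8, 38.0 and 28.7 TPM (log2 fold change 1.71, SE 0.344, adjusted p = 0.00401). Its relative *Unc5c* went the other way, from 45.3, 28.7 and 56.5 TPM to 1.06, 4.67 and 7.47 TPM (log2 fold change -3.22, SE 0.519, adjusted p = 0.00130). The ratio of *Neo1* to *Unc5c* TPM was therefore 1.00 to 1.49 in embryonic samples and 13.2 to 95.7 in adult samples.

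The classical attractive netrin receptor was near the limit of detection. *Dcc* was at 0.913, 0 and 0.794 TPM in embryonic samples and was listed at 0 in all adult samples. *Unc5d* and *Dscam* did not reach 0.2 TPM in any sample. *Unc5a* was at 0.261, 0 and 4.29 TPM against 0, 1.98 and 1.44 TPM and did not pass (adjusted p = 0.969). Of the netrin G genes, which encode lipid-anchored relatives that do not bind these receptors, *Ntng1* fell from 8.16, 4.59 and 3.41 TPM to 0.211, 0.0438 and 0.140 TPM (log2 fold change -2.43, SE 0.474, adjusted p = 0.00344). *Ntng2* rose from 2.44, 0.835 and 6.02 TPM to 33.7, 15.4 and 20.7 TPM (log2 fold change 2.71, SE 0.531, adjusted p = 0.00354).

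**Figure D3:**
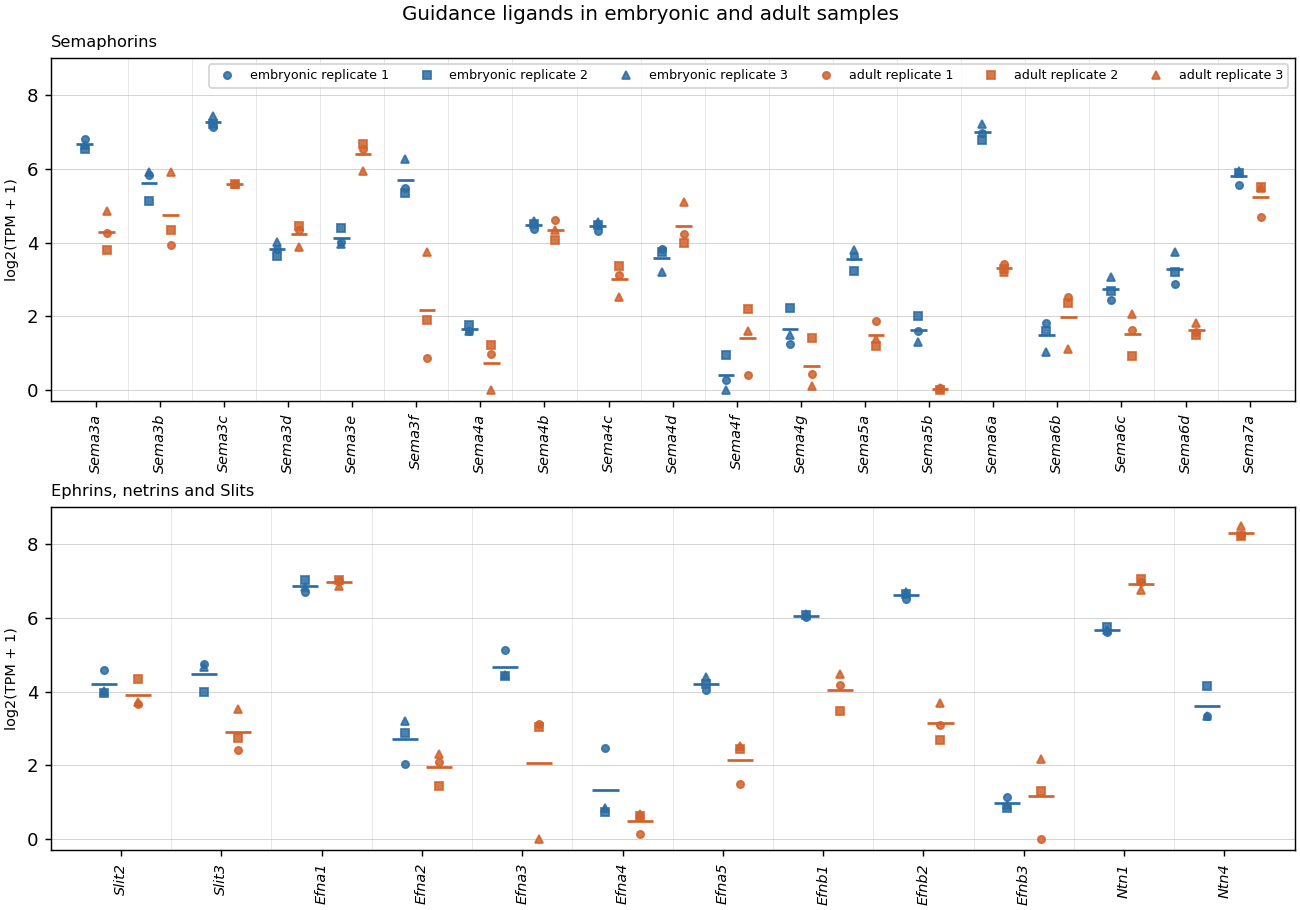
Levels of the 31 tested ligand genes as log2(TPM + 1) in each of the 3 embryonic (blue) and 3 adult (orange) samples, marked by replicate, with short lines at the stage means. *Ntn4* and *Sema3e* rise clear of the embryonic points, *Sema6a* and *Efnb2* fall clear of them, and the points of *Efna1* overlap.

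Among the secreted class 3 semaphorins 3 genes fell, 1 rose and 2 did not pass, where 21.4% of all tested genes fell and 23.9% rose. *Sema3a*, the founding repellent of the class and an inhibitor of bone resorption in mice, was at 110.5, 92.6 and 99.6 TPM in embryonic samples and at 18.0, 12.9 and 27.9 TPM in adult samples. The stages were well apart, with a log2 fold change of -2.37 (SE 0.264, adjusted p = 0.000177). *Sema3c*, required for the outflow tract of the heart, was the highest semaphorin of the embryonic samples, at 139.6, 148 and 169.9 TPM, and the adult samples lay very close together at 47.4, 46.8 and 47.1 TPM. Its log2 fold change was -1.67 (SE 0.140, adjusted p = 3.9e-05). *Sema3f*, a ligand that favours neuropilin 2, was at 43.4, 39.5 and 76.0 TPM against 0.819, 2.72 and 12.5 TPM. Its adult samples were all lower but spread widely, and its log2 fold change of -3.52 (SE 0.652, adjusted p = 0.00265) became -2.87 when adult replicate 1 was left out and -4.31 when adult replicate 3 was.

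*Sema3e* ran against these. This ligand, which binds plexin D1 without a neuropilin, was at 15.2, 20.1 and 14.7 TPM in the embryonic and at 92.2, 101 and 60.9 TPM in adult samples. Each adult value was above each embryonic one, and the log2 fold change was 2.26 (SE 0.242, adjusted p = 0.000142). It held 1.99% to 3.33% of all semaphorin TPM in embryonic samples and 17.7% to 32.4% in adult samples, where it was the highest semaphorin by mean TPM. Its receptor gene *Plxnd1* had nearly equal levels at both stages, 27.4, 17.1 and 25.5 TPM against 26.2, 17.3 and 24.3 TPM (log2 fold change -0.04, interval -0.66 to 0.58, adjusted p = 0.917), and the sign of that difference turned under some alternatives.

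The remaining class 3 genes did not pass. *Sema3b* was at 56.0, 34.3 and 59.2 TPM against 14.3, 19.4 and 59.6 TPM, so that adult replicate 3 alone stood among the embryonic samples (adjusted p = 0.153). Without that replicate the log2 fold change went from -0.89 to -1.49 and passed (adjusted p = 0.00715). *Sema3d* was at 13.3, 11.5 and 15.2 TPM against 19.3, 20.8 and 13.8 TPM (interval of the log2 fold change -0.23 to 1.02, adjusted p = 0.272). *Sema3g* was too low to test. The class 3 sum was 347 to 436 TPM in the embryonic and 192 to 224 TPM in adult samples.

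Of these genes 4 lie in a row on the plus strand of chromosome 5 in GENCODE M21 of GRCm38, with no other member between them. *Sema3d* (chr5:12383385-12588948), *Sema3a* (chr5:13125414-13602565), *Sema3e* (chr5:14025276-14256689) and *Sema3c* (chr5:17574281-17730268) are separated by 536.5 kb, 422.7 kb and 3317.6 kb. Along this order the log2 fold changes were 0.39, which did not pass, then -2.37, 2.26 and -1.67. The upstream windows of *Sema3a* and *Sema3e* printed above belong to this pair of neighbours.

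The membrane-bound semaphorins of classes 4 to 7 were led by *Sema6a*, a ligand and receptor that pairs with plexins A2 and A4. It was at 124, 109.8 and 147 TPM in embryonic samples and at 9.79, 8.76 and 8.29 TPM in adult samples. The mean was 14.2 times higher in embryonic samples and the log2 fold change was -3.68 (SE 0.194, adjusted p = 2.8e-06), among the members the smallest adjusted p of a fall. It held 42.6% to 49.0% of the TPM of these classes in the embryonic and 6.90% to 10.1% in adult samples. The summed TPM of these classes was 252 to 300.5 against 96.8 to 120.1.

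A further 4 of the 13 genes of these classes fell, so that 38.5% were lower, against 21.4% of all tested genes. *Sema4c*, a ligand of plexin B2, went from 18.8, 21.4 and 22.5 TPM to 7.74, 9.38 and 4.78 TPM (log2 fold change -1.44, SE 0.317, adjusted p = 0.00622). *Sema5a*, which carries thrombospondin repeats, went from 11.3, 8.35 and 12.9 TPM to 2.69, 1.28 and 1.60 TPM (log2 fold change -2.07, SE 0.397, adjusted p = 0.00320). *Sema6d*, a ligand of plexin A1, went from 6.36, 8.23 and 12.5 TPM to 1.98, 1.82 and 2.52 TPM (log2 fold change -1.65, SE 0.402, adjusted p = 0.00992). None of the 3 overlapped between the stages. *Sema5b* was low, at 2.03, 3.03 and 1.48 TPM against 0.0520, 0 and 0.0331 TPM (adjusted p = 0.0234), and lost its place past the threshold without embryonic replicate 1 (adjusted p = 0.0511) or 2 (adjusted p = 0.0613).

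The other 8 genes did not pass. *Sema7a*, the lipid-anchored semaphorin that binds integrins and plexin C1, was the highest of them, at 46.6, 58.3 and 60.7 TPM against 24.9, 44.8 and 43.9 TPM (adjusted p = 0.0948). It passed only under median-of-ratios scaling (log2 fold change -0.71, adjusted p = 0.0449). *Sema4d*, a plexin B1 ligand that restrains osteoblasts, was at 13.2, 12.4 and 8.16 TPM against 17.7, 15.0 and 33.0 TPM, with all adult samples above but an adjusted p of 0.0808. *Sema4b* was at 19.6 to 23.1 TPM against 15.7 to 23.4 TPM. *Sema6c* was at 4.43 to 7.43 TPM against 0.892 to 3.15 TPM (adjusted p = 0.0593). It passed without adult replicate 3 (adjusted p = 0.0363), under median-of-ratios scaling (0.0423), with quantile normalization (0.0388) and with eBayes without a trend (0.0327). *Sema4a*, *Sema4f*, *Sema4g* and *Sema6b* stayed under 5 TPM.

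Of the 8 tested plexins, the signalling receptors of the semaphorins, 2 (25%) were lower and 6 did not pass. This share was close to the 21.4% of all tested genes that were lower. Of the 19 tested semaphorins 8 (42.1%) were lower. *Plxna1*, a signalling partner of the neuropilins, was at 144, 123 and 104 TPM in the embryonic and at 113, 98.6 and 118 TPM in adult samples. These overlapped, with a log2 fold change of -0.16 (interval -0.52 to 0.20, adjusted p = 0.436), and 10.7% of its exon bases are shared with an opposite-strand gene, *Gm26811*, whose reads cannot be told apart without strand. *Plxnb2* was at 134, 126 and 127 TPM against 116.5, 105 and 88.3 TPM. All its adult samples were lower, by -0.33 on the log2 scale (interval -0.66 to -0.002, adjusted p = 0.0924), and it passed under median-of-ratios scaling (-0.47, adjusted p = 0.0277) and without adult replicate 1 (-0.42, adjusted p = 0.0454).

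The plexins that fell were *Plxna2* and *Plxna3*, both well below *Plxna1* and *Plxnb2* in embryonic samples. *Plxna2* went from 14.0, 11.9 and 10.9 TPM to 2.29, 5.42 and 5.91 TPM (log2 fold change -1.33, SE 0.395, adjusted p = 0.0238). It passed neither without adult replicate 1 (adjusted p = 0.0502) nor without embryonic replicate 1, 2 or 3 (adjusted p = 0.087, 0.0684 and 0.0582). *Plxna3* went from 15.9, 13.2 and 20.6 TPM to 8.29, 2.78 and 2.54 TPM (log2 fold change -1.80, SE 0.444, adjusted p = 0.0106, and 0.0515 without embryonic replicate 3). *Plxnb1* was at 5.26 to 5.80 TPM against 2.30 to 2.63 TPM, without overlap, but did not pass (adjusted p = 0.0690). It passed under median-of-ratios scaling (adjusted p = 0.0456), with quantile normalization (0.0440) and with eBayes without a trend (0.00602). *Plxna4* stayed under 4 TPM, and *Plxnc1* was at 2.19, 7.27 and 2.18 TPM against 0, 2.93 and 0 TPM (adjusted p = 0.111, and 0.0296 without adult replicate 2). *Plxnb3* and the antisense RNA *Plxna4os1* were too low to test, the latter listed at 0 in all samples.

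The neuropilins, partner genes whose products give class 3 semaphorins their binding site, moved in opposite directions. *Nrp1* was at 48.4, 57.2 and 66.8 TPM in the embryonic and at 9.71, 6.22 and 8.65 TPM in adult samples (log2 fold change -2.68, SE 0.253, adjusted p = 7.2e-05). *Nrp2* was at 131, 127 and 98.9 TPM against 178, 201 and 214 TPM (log2 fold change 0.73, SE 0.152, adjusted p = 0.00464). Neither gene overlapped between the stages, and *Nrp2* was the higher of the pair in each sample. The ratio of *Nrp2* to *Nrp1* TPM was 1.48 to 2.71 in embryonic samples and 18.3 to 32.3 in adult samples.

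**Figure D4:**
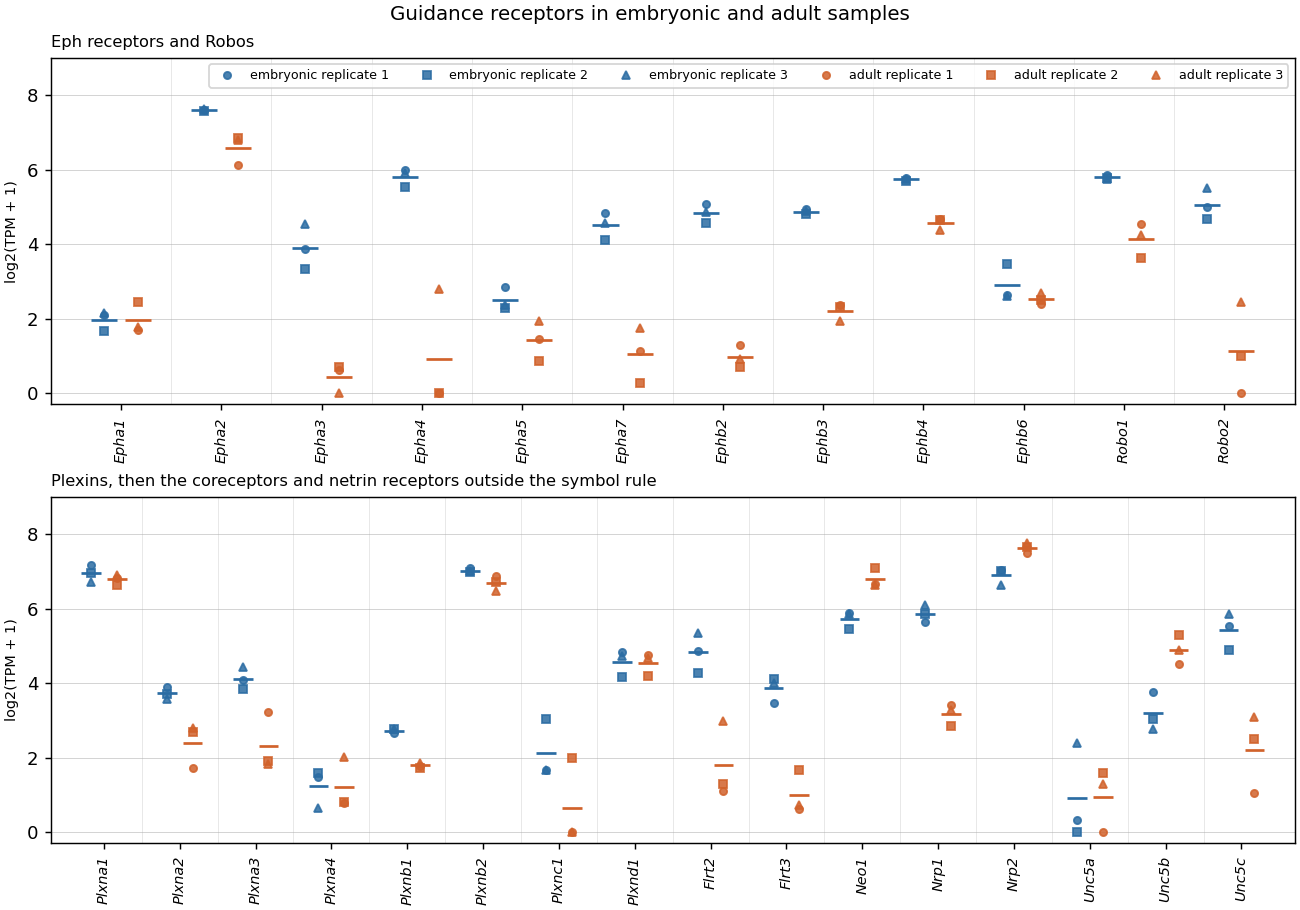
Levels of the tested Eph receptor, Robo and plexin genes and of tested receptor genes outside the symbol rule as log2(TPM + 1) in each of the 3 embryonic (blue) and 3 adult (orange) samples, with short lines at the stage means; *Itgb1*, an integrin subunit, is not drawn. *Epha4*, *Ephb2*, *Robo2* and *Nrp1* fall clear of the embryonic points, *Plxna1* and *Plxnd1* overlap, and *Nrp2*, *Neo1* and *Unc5b* lie above them.

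Of the 8 tested ephrin genes 4 (50%) were lower, against 21.4% of all tested genes, and 4 did not pass. The ephrin B sum went from 154 to 172 TPM in embryonic samples to 16.9 to 36.7 TPM in adult samples, whereas the ephrin A sum was 159.7 to 174 TPM against 125 to 144 TPM. *Efnb2*, the membrane-spanning ligand that marks arterial vessels and is also made by skeletal cells, was at 89.9, 98.5 and 103 TPM in the embryonic and at 7.53, 5.39 and 12.0 TPM in adult samples. The embryonic samples lay close together and far above the adult ones, with a log2 fold change of -3.46 (SE 0.276, adjusted p = 2.9e-05). *Efnb1*, whose human counterpart is mutated in craniofrontonasal syndrome, was at 63.3, 65.8 and 67.9 TPM against 17.1, 10.01 and 21.2 TPM (log2 fold change -2.02, SE 0.269, adjusted p = 0.000456). *Efnb3* stayed under 4 TPM and did not pass.

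*Efna1*, the preferred ligand of EphA2, carried the ephrin A class. It was at 102.5, 129 and 113 TPM in the embryonic and at 126, 130.1 and 116 TPM in adult samples. The stages overlapped, and the log2 fold change of 0.11 had an interval from -0.21 to 0.43 (adjusted p = 0.550) and turned to -0.04 under median-of-ratios scaling. Its share of the ephrin TPM was 32.6% to 38.2% in the embryonic and 71.5% to 80.9% in adult samples.

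The remaining ephrin A genes were lower in level. *Efna5*, the repellent of topographic maps, went from 15.4, 17.3 and 20.1 TPM to 1.79, 4.40 and 4.74 TPM (log2 fold change -2.06, SE 0.386, adjusted p = 0.00280). *Efna3* went from 34.2, 20.4 and 20.7 TPM to 7.77, 7.21 and 0 TPM (log2 fold change -2.61, SE 0.769, adjusted p = 0.0230). It missed the threshold when embryonic replicate 1, 2 or 3 was left out (adjusted p = 0.0894, 0.0647 and 0.0621 in that order). *Efna3* also missed it with eBayes without a trend (0.0517), without a filter on low values (0.052) and with a pseudocount of 0.1 (0.0761). Without adult replicate 3, which was listed at 0, it passed with a smaller log2 fold change of -1.58 (adjusted p = 0.00809). *Efna3* also shares 14.1% of its exon bases with an opposite-strand gene, *Gm15998*. *Efna2* and *Efna4* did not reach 10 TPM and did not pass.

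Eph receptors, the receptor tyrosine kinases that bind ephrins, were mostly lower in adult samples. Of 10 tested genes 7 (70%) were lower, against 21.4% of all tested genes, and 3 did not pass. *Epha2*, at the top of all members in embryonic samples and the receptor for ephrin A1, was at 193, 190.1 and 199 TPM in the embryonic and at 69.3, 114 and 111 TPM in adult samples. All adult samples were lower, with a log2 fold change of -1.01 (SE 0.195, adjusted p = 0.00328). *Epha3*, *Epha4* and *Epha7* were the other EphA genes that passed, and *Epha2* held 45.0% to 50.2% of the Eph receptor TPM in the embryonic and 63.3% to 74.1% in adult samples. The EphA sum was 267 to 311 TPM against 75.1 to 125 TPM.

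Several EphA genes were close to 0 in adult samples. *Epha4*, a receptor that binds both ephrin classes, was at 62.9, 45.4 and 59.3 TPM in embryonic samples, was listed at 0 in adult replicates 1 and 2 and was at 5.95 TPM in adult replicate 3. It passed the threshold (adjusted p = 0.000683), its fitted log2 fold change of -4.88 becoming -5.82 without that replicate. *Epha3* was at 13.6, 9.01 and 22.3 TPM against 0.532, 0.644 and 0 TPM (log2 fold change -3.47, SE 0.470, adjusted p = 0.000499). *Epha7* was at 27.8, 16.5 and 22.8 TPM against 1.18, 0.203 and 2.39 TPM (log2 fold change -3.47, SE 0.466, adjusted p = 0.000481). In each of these genes the embryonic samples lay above 9 TPM and the adult samples below 6 TPM. *Epha5* was at 6.27, 3.89 and 4.20 TPM against 1.76, 0.816 and 2.85 TPM and did not pass (adjusted p = 0.0828, but 0.0455 without adult replicate 3 and 0.0398 with eBayes without a trend). *Epha1* stayed at 2.17 to 4.43 TPM, and *Epha6*, *Epha8* and *Epha10* were too low to test.

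Of the EphB receptors, whose main ligands are the ephrin B proteins, 3 of 4 tested genes (75%) were lower, against 21.4% of all tested genes. *Ephb2* was at 32.6, 22.8 and 28.4 TPM in the embryonic and at 1.46, 0.619 and 0.889 TPM in adult samples (log2 fold change -3.87, SE 0.360, adjusted p = 6.7e-05). *Ephb3* was at 29.9, 26.9 and 28.5 TPM against 4.13, 4.01 and 2.83 TPM (log2 fold change -2.67, SE 0.294, adjusted p = 0.000164). *Ephb4*, the receptor of ephrin B2 on veins, was the highest of the class at both stages, at 53.6, 50.8 and 53.2 TPM against 24.6, 24.3 and 20.01 TPM. Its fall was smaller, with a log2 fold change of -1.16 (SE 0.183, adjusted p = 0.00111). *Ephb6*, which lacks kinase activity, was at 5.16 to 10.01 TPM against 4.22 to 5.43 TPM (adjusted p = 0.455), and *Ephb1* reached 1.10 TPM at most. The EphB sum was 112 to 122 TPM against 29.1 to 34.4 TPM, beside the fall of the ephrin B sum given above.

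Both tested Robo genes and 1 of the 2 tested Slit genes were lower in adult samples, as were 21.4% of all tested genes. *Robo1*, the widely made Slit receptor, was at 57.0, 53.9 and 53.1 TPM in the embryonic and at 22.3, 11.4 and 18.2 TPM in adult samples (log2 fold change -1.65, SE 0.256, adjusted p = 0.00105). *Robo2* was at 31.0, 24.7 and 44.9 TPM against 0, 1.00 and 4.42 TPM. Both receptors were lower in each adult sample, and the log2 fold change of *Robo2* was -3.92 (SE 0.594, adjusted p = 0.000926) and -4.57 without adult replicate 3. *Robo4*, the Robo of endothelial cells, had 0 TPM in the 3 embryonic samples and at most 0.520 TPM in an adult one, and *Robo3* was listed at 0 throughout.

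Of the secreted Slits, *Slit3* was at 25.9, 14.9 and 24.2 TPM in the embryonic and at 4.36, 5.68 and 10.6 TPM in adult samples. The stages did not overlap (log2 fold change -1.57, SE 0.383, adjusted p = 0.01002), but the gene missed the threshold without embryonic replicate 1 (adjusted p = 0.0514). *Slit2* was at 23.2, 14.7 and 15.2 TPM against 11.7, 19.3 and 12.1 TPM. Its stages overlapped, with an interval of the log2 fold change from -0.996 to 0.42 (adjusted p = 0.477). *Slit1*, the Slit of the nervous system, did not exceed 0.308 TPM.

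Beyond the families, 52 partner genes were listed, and 50 had a row: coreceptors and other receptors, ligands and modulators, and proteins that carry the signal inside the cell. This list was chosen with earlier results of these data known. Of the 45 tested, 28 (62.2%) passed, where 45.3% of all tested genes did. In adult samples 9 were higher, a share close to the 23.9% of all genes, and 19 (42.2%) were lower, against 21.4% of all genes. The median log2 fold change was -0.50. The 9 tested receptors of this list included, beside the neuropilins and netrin receptors, *Flrt2* and *Flrt3*, which encode ligands of the UNC5 proteins. *Flrt2* fell from 27.8, 18.4 and 39.7 TPM to 1.13, 1.46 and 6.84 TPM (log2 fold change -3.04, SE 0.541, adjusted p = 0.00216, and -3.63 without adult replicate 3). *Flrt3* fell from 9.96, 16.2 and 15.2 TPM to 0.549, 2.15 and 0.654 TPM (log2 fold change -2.85, SE 0.443, adjusted p = 0.00106). *Itgb1*, the common beta subunit of integrins, which Sema7a and netrins can engage, fell less, from 404, 383 and 423 TPM to 278, 265 and 302 TPM (log2 fold change -0.52, SE 0.114, adjusted p = 0.00628).

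Modulators of the ligands included enzymes that trim heparan sulphate, the sugar chains that hold Slits and other ligands at the cell surface. *Sulf2* was at 391, 397 and 372 TPM in the embryonic and at 50.9, 49.9 and 47.1 TPM in adult samples, with little spread at either stage (log2 fold change -2.95, SE 0.119, adjusted p = 8.3e-07). Its paralog *Sulf1* was at 166 to 171 TPM against 143 to 168 TPM and did not pass (interval of the log2 fold change -0.43 to 0.13, adjusted p = 0.350). In this list of 7 tested genes 1 rose, 3 fell and 3 did not pass, where 23.9% of all tested genes rose and 21.4% fell.

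Of 29 tested genes for signalling inside the cell, 5 rose, 11 fell and 13 did not pass. Over all tested genes 23.9% rose and 21.4% fell. *Enah*, an actin regulator that acts below netrin and Robo receptors, fell from 511, 485 and 505 TPM to 24.2, 31.5 and 28.7 TPM (log2 fold change -4.11, SE 0.140, adjusted p = 3.4e-07). *Mical2*, an actin-oxidising enzyme of the family that acts below plexins, fell from 17.8, 16.0 and 20.6 TPM to 4.71, 1.83 and 1.55 TPM (log2 fold change -2.46, SE 0.408, adjusted p = 0.00148). *Srgap1* and *Srgap3*, encoding GTPase-activating proteins that bind Robo, fell by 1.39 (adjusted p = 0.0107, and 0.0507 without embryonic replicate 3) and 1.17 (adjusted p = 0.0112) on the log2 scale. *Chn1* was at 9.57, 12.3 and 26.4 TPM in embryonic samples and at 4.74, 0 and 0 TPM in adult samples (adjusted p = 0.00793). *Chn2*, the other chimaerin gene, was at 13.3, 25.2 and 10.6 TPM against 0.519, 0 and 12.4 TPM (adjusted p = 0.0407). Of the 6 fits with a sample left out it passed only in that without adult replicate 3 (adjusted p = 0.00135). It also missed the threshold with eBayes without a trend (0.0783), without a filter on low values (0.0837) and with a pseudocount of 0.1 (0.0609).

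Signalling genes that rose included 2 exchange factors below Eph receptors. *Ngef*, encoding ephexin 1, rose from 34.2, 46.2 and 60.6 TPM to 179, 202 and 144 TPM (log2 fold change 1.89, SE 0.224, adjusted p = 0.000243). *Vav3* rose from 9.24, 16.1 and 10.4 TPM to 26.8, 44.7 and 30.4 TPM (log2 fold change 1.44, SE 0.301, adjusted p = 0.00483). *Rnd1*, a small GTPase that binds plexins, went from 11.8, 23.4 and 16.8 TPM to 76.3, 24.6 and 46.6 TPM (log2 fold change 1.36, SE 0.406, adjusted p = 0.0242). The lowest adult value of *Rnd1* was just above its highest embryonic value. The gene missed the threshold without adult replicate 1 (adjusted p = 0.0837) or 3 (0.0674) and without embryonic replicate 1 (0.0926) or 3 (0.0698). It also missed the threshold with eBayes without a trend (0.0543).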

How the data were processed

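RNA-seq was measured in 6 mouse samples, 3 per stage. The methods describe RNA from Qiagen Micro kits, cDNA primed at random and on poly(A) (Nugen Ovation V2) and a Kapa LTP library, where the labels name a Kapa mRNA-Seq kit. The authors mapped the single-end reads to GRCm38 with RefSeq annotations, estimated levels with RSEM (version not given in the sources used here) and deposited log2(TPM + 1) values per gene. Whether counting used strand was not stated, so overlapping opposite-strand genes are not separated. Besides *Plxna1* and *Efna3*, the share of exon bases in such overlaps was 23.4% in *Ntn5*, 10.5% in *Efna4*, 7.3% in *Sema4c* and 6.0% in *Epha1*. TPM adds up to 1000000 in each sample and keeps no sequencing depth, so the precision of a value rests on 3 samples. Between 7314 and 8294 genes were listed at 0 in a sample, and over all genes 6 values of 0 stood beside 2 values of at least 20 TPM in the same stage, so that a 0 may be a failed estimate.

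Ensembl identifiers were matched to GENCODE M21 symbols (21902 matched, 130 not), and all 6 columns were used. Members were the symbols beginning with Sema, Slit, Robo, Ntn, Efna, Efnb, Epha or Ephb before a digit and Plxna to Plxnd. *Ntn3*, *Plxna4os2*, *Plxna4os3* and the partner genes *Mical3* and *Cfl1* were not analysed here. The fit used limma 3.58.1 in R 4.3.3 (lmFit, eBayes with a trend) on log2(TPM + 1) with stage as its term, for genes averaging 1 TPM or more, and was tested on simulated data. EBSeq, a count test named in the methods, was not used. Values in all samples are given for members past the threshold with a log2 fold change of at least 1 in size and for the highest member of each family and role, and for partner receptors and partner genes past the same limits. *Sema3b*, *Sema3d*, *Sema4d*, *Sema7a*, *Plxnb2*, *Plxnc1*, *Plxnd1*, *Epha5* and *Sulf1* were singled out with values after these were seen, and *Srgap1* and *Srgap3* are given by fold change alone. The members and lists were chosen with earlier results of these data known. Upstream windows and motif counts come from RefSeq on GRCm38.p6. The alternatives changed the pseudocount to 0.1, the filter to none or to 5 TPM, the scaling (quantiles, median of ratios, or TPM without the 20 highest genes), the variance model (robust, or without trend), the threshold to an adjusted p of 0.01, added a replicate block, or left out 1 sample at a time. Summaries were made in Python 3.11.15 (numpy 2.4.6, pandas 2.3.3) and drawn with matplotlib 3.10.9.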

Additional observations from a re-analysis of the deposited data

How the results depend on the processing

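The number of guidance genes past the threshold was 27, and 22 to 31 under 16 alternatives (23 to 30 with 1 sample left out). Of the 27, 22 passed under every alternative in which they were tested, and *Efna3*, *Plxna2*, *Plxna3*, *Sema5b* and *Slit3* did not. 0 of the 27 changed direction. The number of partner genes past the threshold was 28, and 22 to 27 with 1 sample left out, and the number lower in adult samples was 19, or 12 at an adjusted p under 0.01, which is stricter by construction. Median-of-ratios scaling moved the median of all genes from 0.16 to 0.03 and that of the members from -1.09 to -1.18. Quantile normalization gave 0.09 and -1.22, and leaving out the 20 highest genes 0.25 and -1.05. Under median-of-ratios scaling 2613 genes were higher and 3234 lower, against 3140 and 2809.

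Directions turned in 6 genes that did not pass, and the cause was not tested. Under median-of-ratios scaling the log2 fold changes of *Epha1*, *Efna1* and *Unc5a* were -0.0976, -0.0361 and -0.0120. That of *Epha1* was -0.0769 under quantile normalization, that of *Efnb3* -0.341 with a pseudocount of 0.1, and those of *Plxna4* and *Plxnd1* 0.0045 and 0.0540 without the 20 highest genes. With 1 sample left out they ran from -0.223 to 0.145 for *Epha1*, -0.313 to 0.773 for *Efnb3*, -0.449 to 0.167 for *Plxna4*, -0.240 to 0.136 for *Plxnd1* and -0.416 to 0.786 for *Unc5a*.

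Samples with the same replicate number did not deviate together over all tested genes (correlations of their deviations -0.0088, -0.0169 and -0.0223). This gave no sign that the numbers pair the samples, but it cannot exclude a shared step that affected only some genes. With the replicate number as a block 26 guidance genes passed, 3 higher and 23 lower, *Sema5b* being lost (adjusted p = 0.0604), and 28 partner genes passed. With 3 samples a stage and no counts, small differences in low genes such as *Plxna4* and *Efnb3* were not detectable.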

Other observations

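Several members lie close together in the genome, and such neighbours did not always pass the threshold together. On the minus strand of chromosome 3 (GENCODE M21, GRCm38) *Efna1* (chr3:89271733-89281142), *Efna3* (chr3:89313899-89322965) and *Efna4* (chr3:89333390-89338028) are separated by 32.8 kb and 10.4 kb. *Efna3* was lower in adult samples, although not past the threshold under every alternative, and *Efna1* had overlapping values. *Efna4* did not pass (0.658 to 4.51 TPM against 0.107 to 0.592 TPM, adjusted p = 0.267). Its log2 fold change was -0.86, and each adult value lay below each embryonic one. On chromosome 9 *Sema3b* and *Sema3f* are 72.3 kb apart. Their log2 fold changes were -0.89 and -3.52, and of these *Sema3f* passed. On chromosome 16 *Robo1* and *Robo2* lie on opposite strands 845.7 kb apart, and both fell. On chromosome 4 *Ephb2*, which fell, lies 93.4 kb from *Epha8*, which did not exceed 0.221 TPM.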
